A study of Mus musculus with 18 samples.

Results

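Oxidative phosphorylation genes were taken as the protein-coding entries whose mouse symbol starts with Nduf, Sdh (Sdha to Sdhd), Uqcr, Cox4 to Cox8 or Atp5, together with the 13 protein-coding genes of mitochondrial DNA, whose symbols start with mt-. They made up 106 of the 32286 entries in the count table, 93 of them nuclear and 13 mitochondrial. A filter on low counts left 101 for testing, 88 nuclear and all 13 mitochondrial. The 5 entries not tested were Cox4i2, Cox6b2, Cox7b2, Cox8b and Cox8c, isoforms of complex IV subunits that were at or below 0.154 CPM (read counts scaled to library size) in every library. The prefixes also bring in the complex I assembly factors Ndufaf1 to Ndufaf8 and the ATP synthase coupling factor Atp5s, and they leave out Cyc1, Atpif1, Usmg5 and Ndufb1-ps. Ndufa4 is grouped here with complex I by its symbol, although the protein is now known as a subunit of complex IV.

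Total mRNA was sequenced from AT-3 and E0771, mouse mammary carcinoma cell lines carrying a doxycycline-inducible retroviral pRetroX vector. The vector was empty (EV), held wild-type MRTFA (WT), which binds G-actin and activates transcription together with SRF, or held Y238A MRTFA, labelled as deficient in SRF binding. Each line and vector had 3 libraries, 18 in all, and every group, EV included, had doxycycline at 2 µg/ml for 48 h. Doxycycline belongs to the tetracyclines, which inhibit mitochondrial protein synthesis, and no library without it was analysed here, so its own effect cannot be told apart from the state common to all groups. The series speaks of replicate sets without naming separate cultures, so p-values measure only the spread between these libraries, and the labels do not say whether a transduced line was a clone or a pool.

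The respiratory chain passes electrons from NADH through complex I, or from succinate through complex II, to ubiquinone, then through complex III and cytochrome c to complex IV, which reduces oxygen. Complexes I, III and IV pump protons across the inner mitochondrial membrane, and complex V, the ATP synthase, makes ATP from that gradient. Complex II is wholly nuclear-encoded, whereas the other complexes join nuclear subunits with a few subunits made inside mitochondria, whose transcripts are cut from long polycistronic RNAs by excision of the transfer RNAs between them.

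Library totals lay between 81265466 and 115260128 counts, the highest in AT-3 WT replicate 1. The MRTFA entry was at most 0.0248 CPM in AT-3 EV and 0.115 CPM in E0771 EV, and in AT-3 it was at 7081, 4835 and 4385 CPM with WT and 2326, 2029 and 1958 CPM with Y238A. In E0771 it was at 866, 707 and 709 CPM with WT and 354, 325 and 279.9 CPM with Y238A, so the constructs differed in amount within each line and the lines differed in the amount of each construct. An earlier analysis of the same counts found transcripts of another group in 4 libraries, AT-3 Y238A replicate 1, E0771 EV replicate 2, E0771 WT replicate 2 and E0771 Y238A replicate 1, and it set AT-3 WT replicate 1 and E0771 Y238A replicate 2 apart from the others of their groups. The 6 epithelial markers summed to 7.61 to 8.33 CPM in AT-3 EV and 306 to 329 CPM in E0771 EV. That difference was Krt8, at most 0.0925 CPM in AT-3 EV and 301 to 325 CPM in E0771 EV, whereas Krt19 was at 3.52 to 4.16 CPM in AT-3 EV and at most 0.0421 CPM in E0771 EV, and Epcam reached 0.864 and 2.35 CPM. The epithelial sum was 46.6 to 48.7 CPM with WT and 66.2 to 78.6 CPM with Y238A in AT-3, and 576 to 688 and 378 to 401 CPM in E0771. In AT-3 most of it was Krt19, at 31.6 to 35.7 CPM with WT and 64.2 to 77.0 CPM with Y238A. Krt8 was at 9.16 to 11.1 CPM with WT in AT-3. Krt7 was at 1.73 to 2.43 CPM with EV in AT-3 and at most 0.240 CPM with Y238A. Epcam, Krt18 and Cdh1 stayed at or below 1.40 CPM in AT-3. In E0771 most of the sum was Krt8. The sum of 7 striated muscle markers went from 20.3 to 22.2 CPM with EV to 1081 to 1146 CPM with WT in AT-3. In E0771 it went from 1.67 to 2.54 CPM to 662 to 849.7 CPM, and with Y238A it was 29.1 to 46.8 and 2.53 to 4.37 CPM. Most of the WT sums was Actc1, and Ckm, Actn2 and Myh6 rose with WT as well. Most of the AT-3 EV sum was Tnnt2, which went from 22.1, 20.8 and 20.2 CPM to 6.44, 7.97 and 7.10 with WT. With Y238A in AT-3 Tnnt2 was at 34.4, 31.5 and 28.1 CPM. Ckmt2 and Mb were at or below 0.233 CPM in every library. The 5 leukocyte markers went in AT-3 from 3.03 to 4.01 CPM with EV to 21.7 to 22.3 CPM with WT and 69.97 to 75.3 CPM with Y238A, and in E0771 from 3.02 to 4.68 CPM to 2.82 to 3.35 and 11.5 to 17.3 CPM, most of it Cd68, with Ptprc at or below 0.252 CPM. The 4 fibroblast markers were at 110.03 to 117 CPM with EV, 21.5 to 25.2 CPM with WT and 116 to 127 CPM with Y238A in AT-3, and at 140.4 to 154, 94.8 to 102 and 223 to 252 CPM in E0771. Most of the AT-3 sums was Pdgfra, with Col1a1 at 2.28 to 4.78 CPM. In E0771 most was Col1a1, at 98.7 to 107 CPM with EV and 198 to 215 CPM with Y238A. Pdgfra was there at 41.5 to 47.0 CPM with EV and 22.8 to 43.1 CPM with Y238A. Dcn and Lum were at or below 0.139 CPM in every library. The part of these markers in the results was not tested.

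In AT-3, mitochondrially encoded mRNA rose with both MRTFA constructs. The 13 genes held 0.647%, 0.641% and 0.777% of counts in the EV libraries, 1.20%, 1.02% and 0.952% in the WT libraries and 0.979%, 1.05% and 0.907% in the Y238A libraries. The WT and Y238A shares overlapped each other and both lay above every EV share. In E0771 the share was 0.707%, 0.608% and 0.624% with EV, 0.628%, 0.605% and 0.579% with WT, and 0.813%, 0.719% and 0.683% with Y238A. There the groups overlapped for EV with WT and for EV with Y238A. In bulk RNA, fewer cells of a type and less RNA per cell cannot be told apart, and a share of counts moves with all other transcripts.

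**Figure D1:**
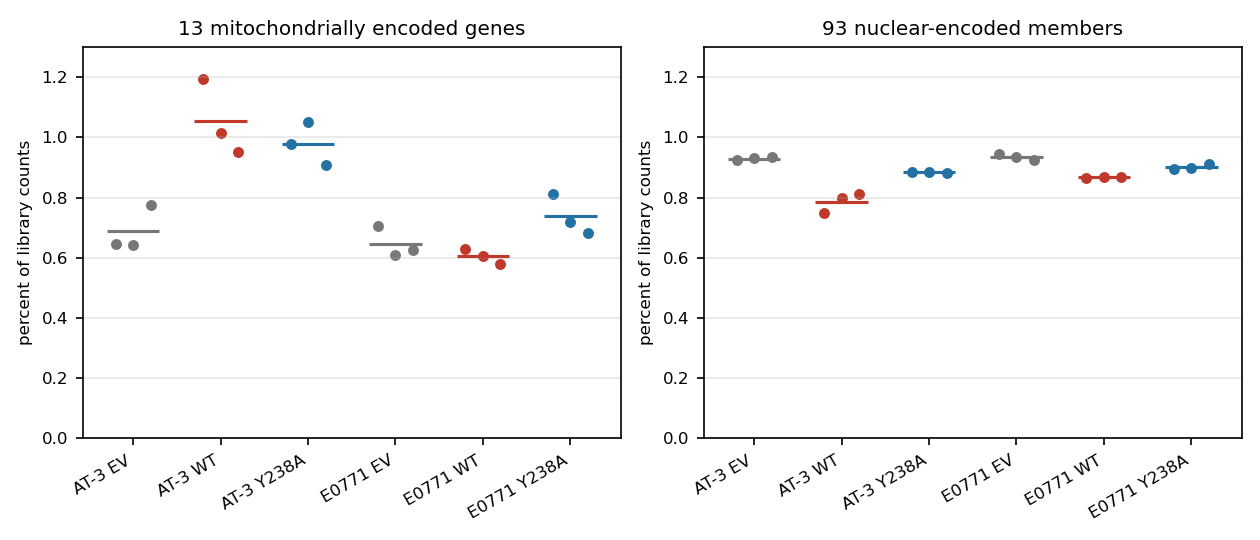
Percent of counts (y axis) held by the 13 mitochondrially encoded and the 93 nuclear-encoded genes in each of the 18 libraries, by line and vector (x axis), with points for libraries and bars for group means. In AT-3 the mitochondrial share was 0.688% on average with EV, 1.05% with WT and 0.979% with Y238A, while the nuclear share was 0.930%, 0.786% and 0.884%.

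The nuclear share followed another order. It averaged 0.930% in AT-3 EV, 0.786% in AT-3 WT and 0.884% in AT-3 Y238A, and in E0771 it averaged 0.936%, 0.868% and 0.901% in the same order. The ratio of mitochondrial to nuclear counts averaged 0.740 in AT-3 EV, 1.35 in AT-3 WT and 1.11 in AT-3 Y238A, against 0.691, 0.696 and 0.820 in E0771. No test was made on these shares, which are descriptions of 3 libraries per group.

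Of the 13 mitochondrial genes, 10 were higher and 0 lower with WT in AT-3 (edgeR quasi-likelihood test, adjusted p under 0.05 over 17841 genes), where 36.4% of all genes tested were higher and 32.2% lower. Among genes with a mean of at least 10 CPM, 32% were higher and 48.2% lower. The median log2 fold change was 0.65 for the 13, against 0.07 over all genes tested and -0.14 over genes of at least 10 CPM. With Y238A, 11 were higher and 0 lower with a median of 0.58, where 21.4% of all genes were higher and 22.2% lower. Both comparisons use the same EV libraries. Library totals in place of TMM scaling shifted the median of all genes with WT in AT-3 by -0.14, and the median of the 13 was then 0.50.

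Complex I takes 7 of its subunits from mitochondrial DNA, which form its membrane arm, and 6 of them rose with WT in AT-3. mt-Nd5, a proton-pumping subunit, was at 548, 568 and 713 CPM with EV, 1576, 1142 and 1095 with WT and 899.9, 983 and 906 with Y238A. No EV library reached a level seen with either construct. The log2 fold change was 1.06 ± 0.14 (adjusted p = 1.54e-05) with WT and 0.61 ± 0.14 (adjusted p = 0.00324) with Y238A. mt-Nd4, another pumping subunit, was at 289, 295 and 359 CPM with EV and 822, 570.3 and 509.6 with WT (log2 fold change 1.01 ± 0.16, adjusted p = 9.53e-05), again without overlap. mt-Nd2 rose by 0.65 ± 0.07 (adjusted p = 3.44e-08) and mt-Nd1 by 0.47 ± 0.08 (adjusted p = 1.97e-05). For mt-Nd2 the Y238A libraries, at 1224, 1194 and 1147 CPM, all lay between those of EV, 900.0, 893 and 1067, and those of WT, 1523, 1474 and 1501.

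mt-Nd6 is the 1 gene of the 13 whose mRNA comes from the other strand, and it rose as well, from 152, 143 and 192 CPM to 390.2, 293 and 269.6 with WT (0.97 ± 0.18, adjusted p = 0.000339). Its end overlaps that of mt-Nd5 on the opposite strand, and whether the counting used strand is not given in the sources used here. With Y238A the change of mt-Nd6 was 0.61 ± 0.18, adjusted p = 0.0146, and the call was lost without EV replicate 1 (adjusted p = 0.054) or without EV replicate 2 (0.061). mt-Nd4l, which shares its last bases with the start of mt-Nd4, rose by 0.90 ± 0.14 with WT. mt-Nd3 was at 28.4, 38.2 and 32.4 CPM with EV and 28.8, 35.0 and 40.7 with WT, with overlapping libraries and a log2 fold change of 0.08 ± 0.12 (adjusted p = 0.579).

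The mitochondrial subunits of the later complexes followed. mt-Cytb, the cytochrome b of complex III and the only subunit of that complex made in mitochondria, was at 1034, 999 and 1248 CPM with EV, 2668, 2147 and 1873 with WT and 1711, 1959.8 and 1541 with Y238A. Its log2 fold changes were 1.03 ± 0.15 (adjusted p = 2.78e-05) with WT and 0.67 ± 0.15 (adjusted p = 0.00208) with Y238A. All 6 libraries with a construct were above the 3 with EV. mt-Co1, the catalytic core of complex IV, rose by 0.84 ± 0.17 (adjusted p = 0.000517) with WT and by 0.64 ± 0.17 (adjusted p = 0.00648) with Y238A, and mt-Co2, which takes electrons from cytochrome c, by 0.56 ± 0.08 and 0.61 ± 0.08. For mt-Co3, the change was 0.25 ± 0.11 (adjusted p = 0.0592) with WT and 0.48 ± 0.11 (adjusted p = 0.0021) with Y238A.

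Complex V takes its proton channel subunit mt-Atp6 and the small mt-Atp8 from mitochondrial DNA. mt-Atp6 was at 56.5, 73.7 and 87.0 CPM with EV and 82.0, 111 and 126 with WT, 0.55 ± 0.16 (adjusted p = 0.00683), a call lost without WT replicate 2 (adjusted p = 0.075) or WT replicate 3 (0.13). mt-Atp8, at 4.27 to 14.3 CPM with EV, gave 0.51 ± 0.64 (adjusted p = 0.5) with WT, with the widest standard error of the 13. AT-3 WT replicate 1 was the highest library for mt-Nd2, mt-Nd4, mt-Nd4l, mt-Nd5, mt-Nd6, mt-Cytb and mt-Co1, as it was for the MRTFA entry and for total counts. Without it, 11 of the 13 were still higher with WT, and without WT replicate 2, 9 were.

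**Figure D2:**
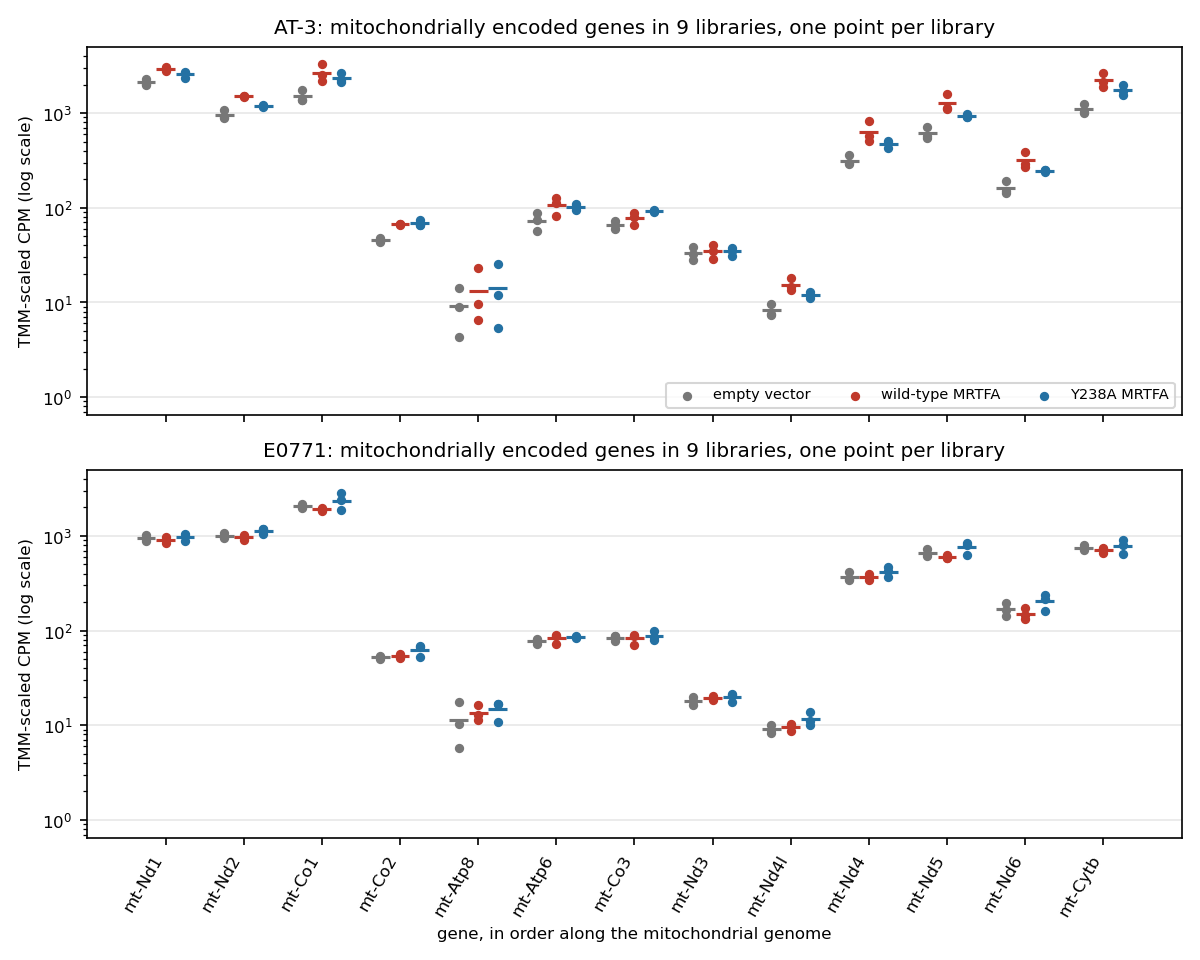
TMM-scaled CPM on a log axis (y axis) of the 13 mitochondrially encoded genes in their order along the mitochondrial genome (x axis), with 1 panel per line, colours for vector, 1 point per library and a bar at each group mean. For mt-Cytb the AT-3 libraries with either construct lie above the 3 EV libraries, while the E0771 groups overlap.

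Between the constructs in AT-3, 6 of the 13 were higher with WT than with Y238A and 0 lower, where 34.8% of all genes were higher and 31.4% lower. The 6 were mt-Nd1, mt-Nd2, mt-Nd4, mt-Nd4l, mt-Nd5 and mt-Cytb, and the median of the 13 was 0.20. Only mt-Nd2 (0.34 ± 0.07, adjusted p = 0.000191) kept the call in every alternative run other than the limit of 0.5 on the log2 fold change, with a value of 0.16 under library totals. The count of 6 became 2 without WT replicate 1, WT replicate 2 or Y238A replicate 3, and 3 without Y238A replicate 1. With library totals 1 was higher and 2 lower, and 1 was lower without WT replicate 2 or WT replicate 3. Wild-type MRTFA was also the more abundant transcript, and its amount and its SRF binding cannot be told apart.

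In E0771, 0 of the 13 passed the edgeR test in either direction with WT, where 11.2% of all genes were higher and 13.3% lower, and 0 had an unadjusted p under 0.05 or were called by DESeq2. mt-Cytb was at 801, 736 and 703 CPM with EV and 744, 732 and 654 with WT, -0.07 ± 0.15 (adjusted p = 0.786), and mt-Nd5 gave -0.15 ± 0.14 (adjusted p = 0.52). The median of the 13 was -0.03, against -0.05 over all genes tested. The test of the line difference, the effect in E0771 less that in AT-3, passed for 9 of the 13, all with a smaller value in E0771, where 23.3% of all genes were higher and 24% lower in that difference. It was -1.21 ± 0.20 (adjusted p = 0.000213) for mt-Nd5 and -1.10 ± 0.21 (adjusted p = 0.000583) for mt-Cytb.

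With Y238A in E0771, 1 of the 13 was higher, where 5.41% of all genes were. That was mt-Co2, 0.27 ± 0.08 (adjusted p = 0.0315), which lost the call without E0771 Y238A replicate 1 (adjusted p = 0.16), Y238A replicate 3 (0.11), EV replicate 2 (0.14) or EV replicate 3 (0.074). The median of the 13 was 0.18. The line difference of the Y238A effect passed only for mt-Co2 (-0.34 ± 0.11, adjusted p = 0.0278), where 13.6% of all genes were lower. That count of 1 was 0 without AT-3 EV replicate 1, AT-3 EV replicate 2 or AT-3 Y238A replicate 2. It was 2 without AT-3 Y238A replicate 3, E0771 Y238A replicate 2 or E0771 Y238A replicate 3, and 4 without AT-3 EV replicate 3. WT against Y238A in E0771 gave 0 higher and 2 lower, mt-Nd2 (-0.23 ± 0.07, adjusted p = 0.013) and mt-Co2 (-0.23 ± 0.08, adjusted p = 0.0353), where 13% of all genes were lower. The 2 became 1 without WT replicate 1 or Y238A replicate 2, and 0 without Y238A replicate 1 or WT replicate 3.

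With EV alone the lines differed in single mitochondrial genes rather than in all 13. AT-3 was higher than E0771 in 3 and lower in 3, where 36.8% of all genes were higher and 35.2% lower. mt-Nd1 was at 2043, 1993 and 2295 CPM in AT-3 and 1023, 934 and 882 in E0771, a log2 difference of 1.16 ± 0.08 (adjusted p = 5.35e-11) with no overlap of libraries. mt-Nd3 was higher by 0.87 ± 0.12 (adjusted p = 4.01e-06) and mt-Cytb by 0.55 ± 0.15 (adjusted p = 0.00404), and mt-Co3 was lower (-0.36 ± 0.11, adjusted p = 0.00917). mt-Co1 (-0.45 ± 0.17, adjusted p = 0.0264) and mt-Co2 (-0.20 ± 0.08, adjusted p = 0.032) were also lower, and the count of 3 lower fell to 1 without AT-3 EV replicate 1, AT-3 EV replicate 2 or E0771 EV replicate 1.

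Levels per length differed widely among the 13 although their RNAs are cut from shared precursors. In AT-3 EV, mt-Nd1, mt-Nd2, mt-Nd5, mt-Nd6 and mt-Cytb lay between 313 and 2205 CPM per kilobase, with a median of 918, and mt-Co2, mt-Atp6, mt-Co3, mt-Nd3 and mt-Nd4l between 27.7 and 106, with a median of 83.8. The latter 5 are those with a near-identical nuclear copy on chromosome 1 in GENCODE M21 (GRCm38), Gm28661, Gm10925, Gm28437, Gm28438 and Gm10222 in the same order, which are not entries of the count table. The aligned bases were identical in 681 of 681 for mt-Co2, 678 of 678 for mt-Atp6, 783 of 783 for mt-Co3, 344 of 345 for mt-Nd3 and 294 of 294 for mt-Nd4l. The first 60 bases of mt-Co2, at chrM:7013-7072 (plus strand, GRCm38), are shown because they are letter for letter those of the copy, with no capitals as no base differs.
mt-Co2: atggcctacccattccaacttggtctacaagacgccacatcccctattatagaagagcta
Gm28661: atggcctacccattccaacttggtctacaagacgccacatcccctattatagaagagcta
How reads that match both places were counted is not given in the sources used here, so the levels of these 5 are uncertain and a comparison of levels between genes is not one of transcript amounts. mt-Co1 shared 51.1% and mt-Nd4 62.2% of their 50-base words with a nuclear copy. mt-Atp8 shared 0% and was at a low level per length too, but only transcripts of annotated genes were searched. A copy outside annotated genes would have been missed, and mt-Atp8 lies between mt-Co2 and mt-Atp6, which both have a copy. A change between groups in 1 gene does not depend on comparing it with another gene, though reads lost to a copy can still alter it.

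**Figure D3:**
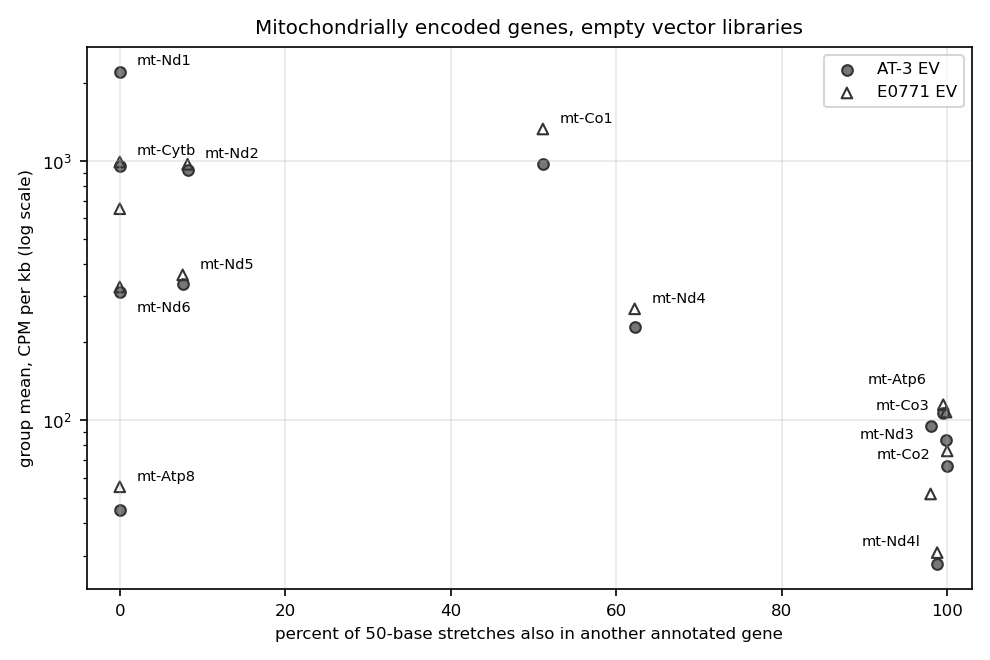
For each of the 13 mitochondrially encoded genes, the mean level in AT-3 EV (filled circles) and E0771 EV (open triangles) in CPM per kilobase on a log axis (y axis), against the percent of its 50-base stretches that also occur in another annotated gene (x axis). In AT-3 the 5 genes at the right lie between 27.7 and 106 CPM per kilobase, and 5 of those under 10% lie between 313 and 2205.

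Of the 88 nuclear genes tested, 17 were higher and 46 lower with WT in AT-3, beside 36.4% and 32.2% of all genes and 32% and 48.2% of genes with at least 10 CPM. Their median log2 fold change was -0.14, the same as that of genes with at least 10 CPM, and the share called lower was near that of such genes. With library totals the split was 11 higher and 59 lower, and 11 were higher without WT replicate 2 or without WT replicate 3. By complex, complex I subunits had 11 higher and 18 lower of 38, its assembly factors 1 and 4 of 8, complex II 0 and 2 of 4, complex III 2 and 3 of 8, complex IV 2 and 6 of 13, and complex V 1 and 13 of 16.

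Among nuclear subunits, Ndufa11 and Ndufa4 had the highest log2 fold changes with WT in AT-3, followed by the muscle isoform Cox7a1 and by Ndufb6. Ndufa11, a membrane-arm accessory subunit, was at 27.7, 30.1 and 32.4 CPM with EV, 100.4, 119 and 114 with WT and 32.5, 32.8 and 29.5 with Y238A. The WT libraries stood clear of all others, and EV and Y238A overlapped. The log2 fold change was 1.89 ± 0.07 (adjusted p = 3.2e-15) with WT and 0.07 ± 0.07 (adjusted p = 0.435) with Y238A. Ndufa11 overlaps Vmac on the opposite strand, whose mean went from 8.65 CPM with EV to 17.1 CPM with WT (log2 fold change 0.98) and whose value with Y238A was 0.93. In E0771 with WT the change was 0.19 ± 0.07 (adjusted p = 0.0458), and it was lost in the omission of WT replicate 1 (adjusted p = 0.067), WT replicate 2 (0.12), WT replicate 3 (0.10), EV replicate 2 (0.15) or EV replicate 3 (0.12).

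Ndufa4 was at 111, 109.7 and 108 CPM with EV, 303, 308 and 302 with WT and 104, 105 and 105 with Y238A in AT-3. Every WT library was above every other library of the line. The log2 fold change was 1.47 ± 0.04 (adjusted p = 5.8e-17) with WT and -0.07 ± 0.04 (adjusted p = 0.183) with Y238A, and in E0771 it was -0.03 ± 0.04 (adjusted p = 0.612) with WT. Ndufb6, an accessory subunit of the membrane arm, went from 27.9, 30.7 and 30.5 CPM to 65.1, 68.0 and 69.1 with WT (1.18 ± 0.07, adjusted p = 8.74e-12) and gave -0.01 ± 0.07 (adjusted p = 0.967) with Y238A. Ndufb8, another of the same arm, rose by 0.67 ± 0.04 (adjusted p = 1.99e-11). The line difference of the WT effect was -1.51 ± 0.06 (adjusted p = 5.67e-14) for Ndufa4, -1.69 ± 0.10 (adjusted p = 1.96e-11) for Ndufa11 and -1.04 ± 0.10 (adjusted p = 3.97e-08) for Ndufb6.

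The bases before the annotated starts of the 3 complex I genes with the largest rise among subunits are shown from RefSeq (GRCm38.p6), since they moved together in AT-3. Ndufa11 is at chr17:56717612-56717761 (plus strand), Ndufa4 at chr6:11907451-11907600 (minus strand) and Ndufb6 at chr4:40279422-40279571 (minus strand). Capitals mark the motif GCGCATGCG bound by NRF1, a regulator of respiratory genes, whose matches on the 2 strands overlap in Ndufa11.
Ndufa11: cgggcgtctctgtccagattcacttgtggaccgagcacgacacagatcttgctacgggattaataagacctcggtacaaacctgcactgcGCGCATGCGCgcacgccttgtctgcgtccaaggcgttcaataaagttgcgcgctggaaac
Ndufa4: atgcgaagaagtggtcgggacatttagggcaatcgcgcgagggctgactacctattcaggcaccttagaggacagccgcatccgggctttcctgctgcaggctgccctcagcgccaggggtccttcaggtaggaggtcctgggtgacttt
Ndufb6: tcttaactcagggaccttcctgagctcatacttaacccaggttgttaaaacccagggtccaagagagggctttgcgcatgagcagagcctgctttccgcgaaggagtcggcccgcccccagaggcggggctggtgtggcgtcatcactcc
RefSeq promoter windows of 300 bases were found for 75 of the 93 nuclear genes. The NRF1 motif GCGCATGCG, searched like the others on both strands, was in 10 of the 75 (13.3%), against 1.95% of 27025 genes. Those 27025 were taken whether or not they were expressed here, and no share among expressed genes was computed. The 10 were Atp5g2, Atp5k, Atp5l, Cox6a1, Ndufa11, Ndufa8, Ndufaf4, Ndufaf5, Uqcr11 and Uqcrc1. The ETS motif CCGGAAGT was in 6.67% against 4.31%, the nuclear receptor motif TCAAGGTCA in 2.67% against 0.466%, and the YY1 motif AAGATGGCG in 10.7% against 1.64%. The CArG box, the motif bound by SRF, was in 0 of the 75 windows against 1.81% of all, which says only that these windows hold no match. Of the genes with the NRF1 motif, Ndufa11 and Atp5l were called higher with WT in AT-3, where 36.4% of all genes were higher. Atp5g2, Atp5k, Ndufaf4, Uqcr11 and Uqcrc1 were called lower, where 32.2% of all genes were. The calls of Cox6a1, Ndufa8 and Ndufaf5 are not given here. Whether a motif match bears on a change was not tested.

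Among accessory subunits of complex I that fell, Ndufs6, near the iron-sulfur clusters, was at 36.8, 36.6 and 36.1 CPM with EV, 21.8, 24.1 and 24.7 with WT and 40.8, 44.7 and 46.6 with Y238A in AT-3. All WT libraries were below all others of the line. It fell with WT by 0.63 ± 0.06 and rose with Y238A by 0.27 ± 0.06 (adjusted p = 0.00134), and Ndufa13 fell with WT (-0.64 ± 0.05, adjusted p = 1.67e-09).

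Ndufv1, which carries the NADH site, was at 109, 111 and 107 CPM with EV, 94.0, 97.9 and 97.5 with WT and 104, 109.6 and 110.2 with Y238A in E0771. The WT libraries were below the others, and it was lower with WT than with EV (-0.18 ± 0.04, adjusted p = 0.00417) and than with Y238A (-0.16 ± 0.04, adjusted p = 0.00713). The first of these calls was lost when E0771 was fitted alone (adjusted p = 0.053) and without the 4 libraries that held transcripts of another group (0.052). In AT-3 Ndufv1 rose with Y238A, by 0.20 ± 0.04 (adjusted p = 0.000563), and the line difference of the Y238A effect was -0.22 ± 0.06 (adjusted p = 0.0104).

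Assembly factors of complex I moved apart in AT-3. Ndufaf3 was at 3.17, 2.70 and 2.88 CPM with EV, 9.01, 8.83 and 7.22 with WT and 5.26, 5.09 and 4.59 with Y238A, ordered WT, Y238A, EV without overlap. It rose by 1.52 ± 0.14 (adjusted p = 4.46e-09) with WT and by 0.77 ± 0.14 (adjusted p = 0.0001) with Y238A, and Impdh2, which overlaps it, had -0.87 with WT. Ndufaf6 fell with WT, from 6.46, 5.92 and 6.89 CPM to 3.13, 3.54 and 2.75 (-1.03 ± 0.11, adjusted p = 3.59e-08), and Ndufaf2, Ndufaf4 and Ndufaf7 were lower too. A separate list held 38 tested assembly factors of all complexes, without the Ndufaf genes. Of these, 11 were higher and 15 lower with WT in AT-3, beside 36.4% and 32.2% of all genes. In E0771 the counts were 2 and 7, beside 11.2% and 13.3%.

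Of the 4 genes of complex II, which also works in the citric acid cycle, 2 were called lower with WT in AT-3, beside 32.2% of all genes. Sdhc, a membrane anchor, fell with WT in AT-3 from 78.5, 82.1 and 85.0 CPM to 59.1, 63.6 and 63.6 (-0.40 ± 0.04, adjusted p = 7.98e-08), and Sdha, the flavoprotein that oxidises succinate, from 256, 257 and 256 to 191, 207 and 208 (-0.35 ± 0.04, adjusted p = 4.39e-07). For both genes the WT libraries were below all EV libraries. In E0771 Sdha fell with Y238A, from 242, 259.9 and 259 CPM to 226, 217 and 226 (-0.18 ± 0.04, adjusted p = 0.00705), and with WT it gave -0.10 ± 0.04 (adjusted p = 0.087).

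In complex III, Uqcrfs1, the Rieske iron-sulfur protein, was at 63.5, 63.8 and 63.4 CPM with EV and 90.9, 99.8 and 96.0 with WT in AT-3, all WT libraries higher (0.59 ± 0.05, adjusted p = 1.15e-09). With Y238A it gave 0.10 ± 0.05 (adjusted p = 0.107), and with WT in E0771 -0.01 ± 0.05 (adjusted p = 0.894). The core protein Uqcrc1 fell with Y238A in AT-3 (-0.35 ± 0.04, adjusted p = 1.3e-06) and with WT (-0.22 ± 0.04, adjusted p = 0.000158), the latter value moving to -0.37 with library totals or without WT replicate 2 and to -0.36 without WT replicate 3. Uqcr11, a small subunit, fell with WT in both lines, with -0.39 ± 0.06 in AT-3 (adjusted p = 4.8e-06) and -0.23 ± 0.06 in E0771 (adjusted p = 0.00583). The E0771 call held in every omission of a single library and was lost without the 4 libraries that held transcripts of another group (0.086).

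In complex IV the largest log2 fold changes against EV were in muscle isoforms. Cox6a2, the heart and muscle isoform of subunit VIa, was at 1.36, 0.843 and 1.11 CPM with EV, 1.18, 1.73 and 2.36 with WT and 0.179, 0.100 and 0.294 with Y238A in AT-3, so that Y238A was lowest and EV overlapped WT. The log2 fold change was -2.53 ± 0.52 (adjusted p = 0.000424) with Y238A and 0.67 ± 0.45 (adjusted p = 0.196) with WT. In E0771 it was at 0.308, 0.337 and 0.392 CPM with EV and 0.892, 2.58 and 0.527 with Y238A (1.94 ± 0.48, adjusted p = 0.0114), with Y238A replicate 2 far above the other two, and without that library the change was 1.04, adjusted p = 0.13. Per length, Cox6a2 made up at most 1.86% of Cox6a1 and Cox6a2 together in any library, the highest being E0771 Y238A replicate 2. Cox7a1, the muscle isoform of subunit VIIa, rose with WT in AT-3 (1.42 ± 0.49, adjusted p = 0.0152) with levels of 0.150, 0.0421 and 0.161 CPM with EV and 0.446, 0.288 and 0.203 CPM with WT, a call lost without WT replicate 1 (adjusted p = 0.090) or EV replicate 2 (0.084).

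Of the widely expressed subunits of complex IV, Cox7a2l, which links complexes III and IV in supercomplexes, went up in AT-3 from 130.2, 138 and 137 CPM with EV to 183, 203 and 202 with WT and down to 116, 114 and 120.1 with Y238A. The 3 groups did not overlap, and the changes were 0.54 ± 0.05 (adjusted p = 2.37e-09) and -0.21 ± 0.05 (adjusted p = 0.000914). Cox4i1, a regulatory subunit, was at 169, 175 and 175 CPM with EV, 146, 149 and 153 with WT and 192, 196 and 196 with Y238A. It fell with WT, -0.21 ± 0.04 (adjusted p = 6.46e-05), a value that moved to -0.36 with library totals, -0.33 without WT replicate 2 and -0.35 without WT replicate 3, and rose by 0.17 ± 0.04 (adjusted p = 0.00109) with Y238A. Cox7b fell with WT (-0.46 ± 0.06, adjusted p = 1.91e-06).

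With WT in AT-3, complex V had the largest share of nuclear genes called lower, 13 of 16. Over all genes 32.2% were lower in that comparison, and over genes with at least 10 CPM 48.2%. Its nuclear genes held 0.415% of counts on average in AT-3 EV and 0.318% in AT-3 WT. Atp5g2, 1 of the genes for subunit c of the proton-driven ring, was at 113, 119 and 113 CPM with EV, 62.9, 71.8 and 74.3 with WT and 97.3, 96.6 and 94.1 with Y238A in AT-3. It was lower with both constructs without overlap with EV, with -0.72 ± 0.05 for WT (adjusted p = 1.49e-10) and -0.26 ± 0.05 for Y238A (adjusted p = 0.00035). Atp5g1, another gene for the same protein subunit, fell with WT (-0.38 ± 0.05, adjusted p = 9.38e-07) and rose with Y238A (0.27 ± 0.05, adjusted p = 9.62e-05). Atp5c1, the gamma subunit of the central stalk, fell with WT from 238.05, 237.80 and 233 CPM to 137, 154 and 156 (-0.66 ± 0.05, adjusted p = 2.56e-10), and so did Atp5e, the epsilon subunit (-0.70 ± 0.07, adjusted p = 2.73e-08).

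The catalytic head of complex V was lower as well. Atp5a1, its alpha subunit, was at 792, 793 and 800.0 CPM with EV, 579.6, 633 and 636 with WT and 682, 667 and 679 with Y238A in AT-3, with changes of -0.37 ± 0.04 (adjusted p = 1.11e-07) and -0.23 ± 0.04 (adjusted p = 9.22e-05). Atp5b, the beta subunit, was at 1638, 1640 and 1655 CPM with EV and 1462, 1570 and 1565 with WT in AT-3. It fell with Y238A in both lines, with -0.34 ± 0.04 in AT-3 (adjusted p = 2.33e-07) and -0.16 ± 0.04 in E0771 (adjusted p = 0.00615). The E0771 call was lost without the 4 libraries that held transcripts of another group (0.14). Atp5l, subunit g of the membrane part, was the 1 tested nuclear gene of complex V called higher with WT in AT-3 (0.33 ± 0.07, adjusted p = 0.000192). That value moved to 0.18 with library totals, 0.19 without WT replicate 2 and 0.21 without WT replicate 3. In E0771 Atp5l fell (-0.26 ± 0.07, adjusted p = 0.0073, lost without WT replicate 3 at 0.056). Atp5l overlaps Gm30934 on the opposite strand, whose mean went from 1.02 CPM with EV to 5.15 CPM with WT in AT-3. The log2 fold change of Gm30934 with WT was 2.34 in AT-3 and -1.03 in E0771.

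**Figure D4:**
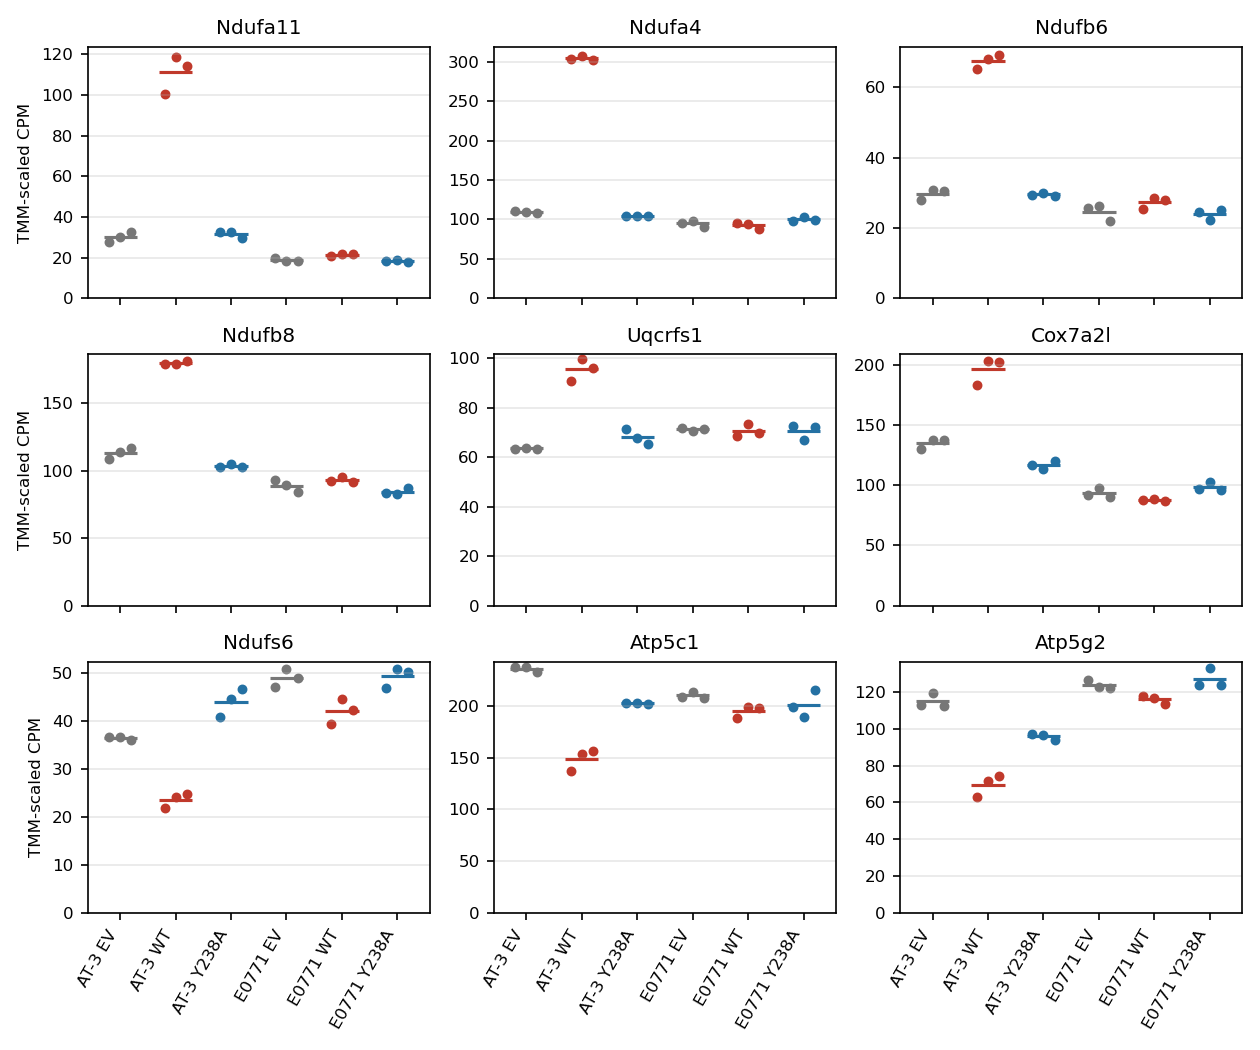
TMM-scaled CPM (y axis, linear and from 0) of 9 nuclear-encoded genes in the 18 libraries by line and vector (x axis), with 1 point per library and a bar at each group mean. Ndufa11, Ndufa4, Ndufb6, Ndufb8, Uqcrfs1 and Cox7a2l are highest, and Ndufs6, Atp5c1 and Atp5g2 lowest, in the 3 AT-3 WT libraries.

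With Y238A in AT-3, 18 of the 88 nuclear genes were higher and 26 lower, beside 21.4% and 22.2% of all genes and 27% and 35.7% of genes with at least 10 CPM, and the median was -0.03. The count of 26 was 17 without EV replicate 2 and 16 without the 4 libraries that held transcripts of another group. By complex, 8 complex I subunits were higher and 9 lower, and in complex V 3 were higher and 8 lower. Ndufa6, an accessory subunit of complex I, rose with Y238A (0.57 ± 0.05, adjusted p = 4.86e-09) and with WT (0.34 ± 0.05, or 0.19 with library totals and 0.22 without WT replicate 2 or WT replicate 3). Ndufb7 fell with Y238A (-0.42 ± 0.04, adjusted p = 1.17e-07), and Atp5s rose (0.72 ± 0.12, adjusted p = 3.17e-05).

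Between the constructs in AT-3, 21 nuclear genes were higher with WT and 42 lower, beside 34.8% and 31.4% of all genes and 32.9% and 44.9% of genes with at least 10 CPM. The split was 11 and 59 with library totals, and 12 were higher without WT replicate 2 or WT replicate 3. Ndufa4 (1.54 ± 0.04, adjusted p = 2.36e-17) and Ndufa11 (1.81 ± 0.07, adjusted p = 4.39e-15) were the highest of the complex I subunits, and Ndufs6 (-0.90 ± 0.06, adjusted p = 1.03e-10) and Atp5g1 (-0.65 ± 0.05, adjusted p = 2.79e-10) were lower.

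In E0771 with WT, 2 nuclear genes were higher, Ndufa11 and Ndufv2, and 20 lower, beside 11.2% and 13.3% of all genes and 12.7% and 23.2% of genes with at least 10 CPM. Complex V had 8 of its 16 among the lower. These counts turned on single libraries: 7 were lower without WT replicate 1 or EV replicate 2 and 10 without WT replicate 3, and of the 2 higher, 1 was left without EV replicate 1, WT replicate 1 or EV replicate 2 and 0 without WT replicate 2, EV replicate 3 or WT replicate 3. The count of lower genes was 33 with library totals, 5 with a stricter filter, 2 with E0771 fitted alone and 3 without the 4 libraries that held transcripts of another group. Of the tested nuclear genes, 16 were called lower with WT in both lines, which is 34.8% of those lower in AT-3 and 80% of those lower in E0771. They made up 18.2% of the 88, beside 9.74% of all genes and 17.6% of genes with at least 10 CPM called lower in both. A further 2 were higher in both and 1, Atp5l, went opposite ways. The 16 were Atp5a1, Atp5e, Atp5g1, Atp5j, Atp5j2, Atp5k and Atp5o of complex V, Cox4i1 and Cox7b of complex IV, Uqcr11 of complex III, Ndufa9, Ndufa13, Ndufb10 and Ndufs6 of complex I, and the assembly factors Ndufaf2 and Ndufaf7.

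With Y238A in E0771, 2 nuclear genes were higher, Atp5s and Cox6a2, and 8 lower, beside 5.41% and 6.64% of all genes and 6.76% and 11.9% of genes with at least 10 CPM. The 8 were 3 without EV replicate 2 and 5 without Y238A replicate 2, and the 2 higher were 0 without Y238A replicate 2 and 1 without EV replicate 1, EV replicate 2, EV replicate 3 or Y238A replicate 1. WT against Y238A gave 5 higher and 13 lower, beside 12.7% and 13% of all genes and 16.2% and 19.8% of genes with at least 10 CPM, and 1 and 23 with library totals or 8 and 13 with DESeq2 size factors. The 5 were 3 without Y238A replicate 1 or WT replicate 3 and 2 without WT replicate 2, and the 13 were 7 without WT replicate 3. Atp5s (-0.45 ± 0.11, adjusted p = 0.00433) and Cox6a2 (-2.31 ± 0.50, adjusted p = 0.00136, or -1.41 without Y238A replicate 2) were lower with WT.

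The WT effect differed between the lines for 39 of the 88 nuclear genes, with 22 higher and 17 lower in E0771, beside 23.3% and 24% of all genes and 36.4% and 27.7% of genes with at least 10 CPM. With library totals the split was 45 and 10, without AT-3 WT replicate 2 it was 50 and 10, and without AT-3 WT replicate 3 it was 49 and 11. For Atp5g2 the difference was 0.63 ± 0.07 (adjusted p = 5.41e-07). The Y238A effect differed with 9 higher and 13 lower, beside 12.2% and 13.6% of all genes and 19.8% and 20.6% of genes with at least 10 CPM, or 12 and 8 with DESeq2 size factors and 12 and 11 with library totals. The 13 were 8 without AT-3 EV replicate 1, AT-3 EV replicate 2 or AT-3 Y238A replicate 3, 7 without E0771 EV replicate 2 and 6 without E0771 Y238A replicate 1 or AT-3 Y238A replicate 2. Ndufaf3 (-1.0 ± 0.19, adjusted p = 0.000465) was among them.

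With EV alone, 37 of the 88 nuclear genes were higher in AT-3 than in E0771 and 30 lower, beside 36.8% and 35.2% of all genes and 41.7% and 43% of genes with at least 10 CPM, with a median of 0.07. Uqcr10, a small subunit of complex III, was at 162, 156 and 161 CPM in AT-3 and 73.1, 77.8 and 69.6 in E0771, more than the spread in either line (1.12 ± 0.05, adjusted p = 6.81e-14). Cox8a, a subunit of complex IV, was higher in AT-3 by 0.94 ± 0.04 (adjusted p = 4.85e-14), and complex IV had 8 higher and 2 lower of 13. Complex I assembly factors had 2 higher and 6 lower of 8, among them Ndufaf3 (-1.35 ± 0.14) and Ndufaf4 (-1.07 ± 0.08). Ndufs1, the largest core subunit of complex I, was lower (-0.77 ± 0.04, adjusted p = 2.02e-12), and Ndufb7 higher (1.0 ± 0.04, adjusted p = 2.63e-14).

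Of the 11 regulators of mitochondrial genes listed, 4 were higher and 4 lower with WT in AT-3, beside 36.4% and 32.2% of all genes. With Y238A the counts in AT-3 were 2 and 4, beside 21.4% and 22.2%. In E0771, 3 were higher and 0 lower with WT, beside 11.2% and 13.3%, and 0 and 1 with Y238A, beside 5.41% and 6.64%. Ppargc1a, the coactivator PGC-1 alpha, was at 0.856, 1.16 and 0.990 CPM with EV, 16.8, 11.7 and 13.7 with WT and 1.35, 1.86 and 1.88 with Y238A in AT-3. The WT libraries were far above the rest (3.81 ± 0.30, adjusted p = 6.61e-10). Esrra, the nuclear receptor ERR alpha that PGC-1 alpha acts on, went from 22.6, 20.7 and 22.9 to 37.7, 40.4 and 42.1 CPM with WT (0.86 ± 0.09, adjusted p = 6.64e-08) and gave -0.14 ± 0.09 (adjusted p = 0.23) with Y238A. The WT effect in E0771 less that in AT-3 was -2.72 for Ppargc1a, beside 3.81 in AT-3, and -0.51 for Esrra, beside 0.86. Tfam, which packages and transcribes mitochondrial DNA, fell in AT-3 with WT, from 44.3, 44.5 and 45.0 to 31.3, 32.4 and 34.5 CPM (-0.45 ± 0.06, adjusted p = 5.71e-07), and with Y238A (-0.26 ± 0.06, adjusted p = 0.000826), while the mitochondrial mRNAs were higher with both. Nrf1 fell with WT (-0.19 ± 0.04) and with Y238A (-0.36 ± 0.04), and Polrmt, the mitochondrial RNA polymerase, gave -0.10 ± 0.06 (adjusted p = 0.151) with WT.

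Counts for wider mitochondrial lists in AT-3 stand beside 36.4% of all genes higher and 32.2% lower with WT (32% and 48.2% of genes with at least 10 CPM), and 21.4% and 22.2% with Y238A (27% and 35.7%). Of 78 mitochondrial ribosomal proteins, 17 were higher and 41 lower with WT (median -0.17) and 12 and 31 with Y238A. Of 28 genes for the expression of mitochondrial DNA, 4 were higher and 12 lower with WT and 4 and 8 with Y238A. Of 13 markers of mitochondrial mass, 3 were higher and 9 lower with WT and 0 and 11 with Y238A, while 16 citric acid cycle genes had 6 and 5 with WT and 7 and 2 with Y238A. The 38 assembly factors had 9 higher and 8 lower with Y238A, the 2 electron carrier genes 1 and 1 with either construct, and 3 tested genes of muscle mitochondria 2 and 0 with WT and 0 and 2 with Y238A. The median of the mass markers with WT was -0.52, beside -0.14 for genes with at least 10 CPM. Slc25a4, the adenine nucleotide carrier of heart and muscle, rose with WT in both lines, from 486, 492 and 487 to 882, 945 and 934 CPM in AT-3 (0.91 ± 0.05, adjusted p = 3.94e-13) and from 442, 463 and 425 to 646, 652 and 625 in E0771 (0.53 ± 0.05, adjusted p = 1.44e-08), and fell with Y238A in both (-0.31 ± 0.04 and -0.25 ± 0.04).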

How the data were processed

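mRNA of 18 libraries was sequenced, 3 in each of 6 groups. Raw read counts per gene were deposited as 1 table, and per the submitters' processing notes reads were aligned with STAR and counted with featureCounts on GRCm38; versions, strandedness and the treatment of reads matching several places are not given in the sources used here. Symbols came from GENCODE M21 for 32235 of 32286 entries. Library totals were 81265466 to 115260128 counts.

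The test was run in edgeR 4.0.16 under R 4.3.3, where filterByExpr (minimum count 10, minimum total 15) kept 17841 genes, with TMM scaling, 6 group means over all 18 libraries, 12 residual degrees of freedom and the quasi-likelihood test. Benjamini-Hochberg adjustment ran over the whole set of genes kept, and calls took an adjusted p under 0.05. Values are log2 fold changes ± SE, n = 3 libraries per group. CPM are counts over TMM-scaled totals, and CPM per kilobase divide them by exon length. The procedure was tested on simulated data. In E0771, EV and WT libraries of the same number correlated at 0.17, 0.39 and 0.17 in their deviations from group means, so a replicate block was read beside that comparison. There were 7 comparisons between groups and 2 line differences.

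Members and lists were chosen with earlier results of these data known. The rule for naming took all 13 mitochondrial genes, core and isoform subunits, per complex and comparison the nuclear gene of smallest p in each direction, and regulators; 1 gene that this rule names is not reported here. Ndufb6, Ndufb8, Ndufa13, Ndufs6, Ndufaf2, Ndufaf4, Ndufaf7, Atp5e and Uqcr10 were partly named after their values were seen. Overlapping genes were read from GENCODE M21.

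Alternatives were DESeq2 1.42.0, its size factors, library totals, scaling without mitochondrial genes, no filter, a stricter filter, each line fitted alone, a replicate block, omission of the 4 libraries that held transcripts of another group, a required log2 change of 0.5 or more in size, a protein-coding denominator for shares, and omission of each library in turn.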

Additional observations from a re-analysis of the deposited data

Results flagged for a closer look

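The effect of a construct differed between the lines for the genes below (edgeR quasi-likelihood test of the difference, adjusted p under 0.05 over all genes tested). Each value is the log2 fold change against empty vector in E0771 minus that in AT-3, and the lines also differed in the amount of each construct.

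For wild-type MRTFA, 9 mitochondrially encoded genes had lower values in E0771: -0.53 for mt-Nd1, -0.71 for mt-Nd2, -1.02 for mt-Nd4, -0.84 for mt-Nd4l, -1.21 for mt-Nd5, -1.13 for mt-Nd6, -1.10 for mt-Cytb, -0.94 for mt-Co1 and -0.52 for mt-Co2. Each of them had risen in AT-3 and none of the 13 passed the test in E0771.

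Of the 39 nuclear genes that passed for wild type, 28 were those for which alternatives were run, and only these are listed. The wild-type effect was lower in E0771 with these log2 differences: -0.38 for Ndufa1, -1.51 for Ndufa4, -0.37 for Ndufa6, -1.69 for Ndufa11, -1.43 for Ndufaf3, -1.04 for Ndufb6, -0.60 for Ndufb8, -0.20 for Ndufb11, -0.22 for Ndufv1, -0.60 for Uqcr10, -0.60 for Uqcrfs1, -0.22 for Cox5a, -1.70 for Cox7a1, -0.63 for Cox7a2l and -0.60 for Atp5l. It was higher with 0.83 for Ndufaf6, 0.24 for Sdha, 0.29 for Sdhc, 0.26 for Cox7b, 0.22 for Atp5a1, 0.56 for Atp5c1, 0.20 for Atp5g1, 0.63 for Atp5g2, 0.37 for Ndufaf7, 0.23 for Uqcrb, 0.45 for Ndufa13, 0.41 for Ndufs6 and 0.48 for Atp5e. Among the regulators and carriers, the wild-type difference was -2.72 for Ppargc1a, -0.51 for Esrra, 0.24 for Tfam and -0.38 for Slc25a4.

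For Y238A, the difference was -0.34 for mt-Co2. Of the 22 nuclear genes that passed, the 17 for which alternatives were run are listed. The Y238A effect was lower in E0771 with -0.31 for Ndufa1, -0.45 for Ndufa6, -1.0 for Ndufaf3, -0.22 for Ndufv1, -0.21 for Uqcr10, -0.24 for Uqcr11, -0.17 for Cox8a, -0.39 for Atp5g1, -0.26 for Ndufs6 and -0.18 for Cox6c. It was higher with 0.31 for Ndufb7, 0.23 for Uqcrc1, 4.48 for Cox6a2, 0.29 for Cox7a2l, 0.18 for Atp5b, 0.29 for Atp5g2 and 0.31 for Atp5e, the Cox6a2 value resting on levels of at most 2.58 CPM. For Nrf1 the Y238A difference was 0.30.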

How the results depend on the processing

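Counts of called genes depended on the settings as follows, and the cause was not tested unless the setting itself gives it (fewer libraries or a limit on size). Values with no comment are counts of genes. Library totals changed AT-3 WT nuclear higher calls to 11, WT against Y238A in AT-3 to 11 nuclear higher and 1 mitochondrial higher and 2 lower, E0771 WT to 1 nuclear higher and 33 lower, E0771 WT against Y238A to 1 and 23, and the line difference of WT to 45 and 10. DESeq2 gave 2 mitochondrial higher with Y238A in E0771, 9 nuclear higher for E0771 WT against Y238A, and 3 mitochondrial lower in the Y238A line difference, and its size factors gave 8 nuclear higher and 8 nuclear lower in the latter 2. Without a filter, 3 mitochondrial genes were higher for AT-3 WT against Y238A, 0 nuclear for E0771 WT and 1 for E0771 Y238A. The stricter filter gave 1 mitochondrial lower for AT-3 WT against Y238A, 6 nuclear higher and 5 lower for E0771 WT, 5 nuclear and 2 mitochondrial higher for E0771 Y238A, 10 nuclear higher and 1 mitochondrial lower for E0771 WT against Y238A, and 37 and 15 nuclear higher in the WT and Y238A line differences. With each line alone, 1 mitochondrial gene was lower for AT-3 WT against Y238A, 2 nuclear lower for E0771 WT, 0 mitochondrial higher for E0771 Y238A, and 8 nuclear higher, 8 nuclear lower and 1 mitochondrial lower for E0771 WT against Y238A.

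Without the 4 libraries that held transcripts of another group, 16 nuclear genes were lower with Y238A in AT-3 and 1 mitochondrial gene higher for AT-3 WT against Y238A. In E0771 there were then 0 nuclear higher and 3 lower with WT, 0 nuclear higher, 0 nuclear lower and 0 mitochondrial higher with Y238A, 0 nuclear higher, 6 nuclear lower and 0 mitochondrial lower for WT against Y238A, and 3 nuclear lower in the Y238A line difference. A limit of 0.5 on the log2 fold change left nuclear higher and lower counts of 8 and 12 (AT-3 WT), 3 and 1 (AT-3 Y238A), 7 and 9 (AT-3 WT against Y238A), 0 and 0 (E0771 WT), 1 and 0 (E0771 Y238A), 0 and 1 (E0771 WT against Y238A), 18 and 13 (EV lines), 4 and 10 (WT line difference) and 1 and 1 (Y238A line difference). It left 7 mitochondrial higher with Y238A in AT-3 and 0 for the higher calls of AT-3 WT against Y238A and E0771 Y238A and the lower calls of E0771 WT against Y238A, the EV lines and the Y238A line difference. With a protein-coding denominator the nuclear shares were 0.935% in AT-3 EV, 0.891% in AT-3 Y238A and 0.873% in E0771 WT. Of 360 such counts and shares, 286 stayed within 1.5 times or 1 SD and 74 did not.

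Leaving out 1 library at a time gave 11 to 19 nuclear higher for AT-3 WT, 17 to 22 lower for AT-3 Y238A, and for AT-3 WT against Y238A 12 to 24 nuclear higher and 2 to 6 mitochondrial higher and 0 to 1 lower. E0771 WT gave 0 to 1 nuclear higher and 7 to 17 lower. E0771 Y238A gave 0 to 2 and 3 to 10, with 0 to 1 mitochondrial higher. E0771 WT against Y238A gave 2 to 5 and 7 to 14, with 0 to 3 mitochondrial lower. The EV lines gave 1 to 4 mitochondrial lower, the WT line difference 16 to 50 nuclear higher and 10 to 21 lower, and the Y238A line difference 6 to 17 nuclear and 0 to 4 mitochondrial lower.

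Signs of single log2 fold changes turned in AT-3 WT against EV with library totals for Ndufb7 (-0.13), Ndufb11 (-0.034), Ndufv1 (-0.11), Ndufv2 (-0.018), Ndufa8 (-0.047) and Cox6c (-0.13). Leaving out 1 library at a time turned, with the range over the libraries left out, Ndufb7 (-0.12 to 0.045) and Ndufb11 (-0.024 to 0.15) without WT replicate 3, Ndufv2 (-0.025 to 0.17) without WT replicate 2 and Ndufa8 (-0.037 to 0.13) and Cox6c (-0.11 to 0.047) without WT replicate 2 or without WT replicate 3. In AT-3 WT against Y238A signs turned with library totals for Uqcrc1 (-0.040), Uqcrc2 (-0.030), Cox5a (-0.17), Cox6b1 (-0.17), Cox7a2 (-0.13), Atp5g3 (-0.031), Ndufa8 (-0.14) and Nrf1 (-0.00164), and with 1 library left out for Uqcrc2 (-0.021 to 0.21) without WT replicate 3 and Cox5a (-0.12 to 0.034) and Cox6b1 (-0.13 to 0.052) without WT replicate 2 or without WT replicate 3. In the WT line difference they turned for Sdhb (-0.043 to 0.21) and Ndufa8 (-0.072 to 0.16) without AT-3 WT replicate 3.

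Same-numbered libraries correlated at -0.013 to 0.062 in AT-3 in their deviations from group means. In E0771, other than EV with WT, the range was -0.18 to 0.19. Libraries of unlike number reached 0.28 in E0771 (EV replicate 2 with Y238A replicate 1), and the labels name no pairs. A replicate block, with 8 residual degrees of freedom, gave 1 mitochondrial gene lower for AT-3 WT against Y238A, 1 for E0771 WT against Y238A and 3 for the Y238A line difference, and moved no other count by over 1.5 times. For E0771 WT against EV, where same-numbered libraries correlated at 0.17, 0.39 and 0.17, the block gave 2 nuclear genes higher and 19 lower. The 0.39 was between EV replicate 2 and WT replicate 2, both among the 4 libraries that held transcripts of another group. Low levels had wide errors: the standard error with WT in AT-3 was 0.45 for Cox6a2 and 0.04 for Ndufa4.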
